A study of Rattus norvegicus with 6 samples.

Results

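The circadian clock genes described here are 10 rat genes: the activator Bmal1 (also written Arntl), the repressors Per1, Per2, Per3, Cry1 and Cry2, the nuclear receptors Nr1d1 and Nr1d2, and the PAR bZIP factors Dbp and Tef. They are 10 of the 15284 genes that probes of the array could be named for through a RefSeq accession, and 10 of the 11748 genes tested. Each was represented by its brightest probe, and that probe was well above background on all 6 arrays for all 10. The array carries 21 probes for them, of which 20 passed the filter on dim probes.

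The tissue was renal cortex from 6 male Sprague-Dawley (Crl:CD(SD)) rats, bought at 5 weeks of age and kept under 12 h of light and 12 h of dark. Over 4 weeks, 3 of the rats were given corn oil and the other 3 the nitroaromatic amine 2-amino-4-nitrophenol, with 750 mg/kg/day as the dose. Replicates are biological according to the series' design text. The hour of the day at which tissue was taken is not given in the sources used here. One single-colour array was hybridised per animal, and 3 arrays per group limit the precision of every value.

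In mammalian cells BMAL1 pairs with CLOCK or its relative NPAS2 and switches on genes that carry E-box sequences, among them Per, Cry, Nr1d and Dbp. The PER and CRY proteins then block their own activator, while the NR1D (REV-ERB) receptors repress Bmal1, so that Bmal1 runs roughly opposite in phase to Dbp, Per3 and Nr1d1 in rodent peripheral tissues. The kidney has such a clock, and DBP, TEF and HLF pass its rhythm on to genes of drug and heme metabolism and of transport.

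Values are the log2 of the processed spot signal minus the array's 75th percentile, so 0 is that percentile and 1 unit is a doubling. They compare animals for a given probe and do not compare genes with each other. Between 61.6% and 70.9% of the 61657 non-control probes were well above background on each array. Markers of the proximal tubule (Slc34a1 at 7.99 to 8.31, Slc22a6 at 8.10 to 8.37) were well above background on all arrays. So were both markers of the inner medulla, the urea transporter Slc14a2 at -3.51 to -3.22 and Aqp4 at -0.65 to 0.28. The array named corn oil replicate 2 stood apart in the clock genes and was the only array on its slide, as the other 5 shared a slide. It is numbered by its scanner file. In the authors' value table the same values stand in the column of corn oil replicate 1.

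One array, corn oil replicate 2, was high for Bmal1 and low for most of the other clock genes. It was the lowest of the 6 animals for 7 of the 10 genes (Per2, Per3, Cry1, Cry2, Nr1d2, Dbp and Tef) and the highest for Bmal1. Over all 11748 genes tested it was the lowest or highest for 36.7%. The other arrays were lowest or highest for fewer of the 10 genes: treated replicate 1 for 6 (31.3% of all genes), corn oil replicates 1 and 3 for 2 each (27.1% and 23.4%), treated replicate 3 for 2 (25.8%) and treated replicate 2 for 0 (55.7%). For Bmal1, Dbp and Tef it was separated from the nearest other animal by more than 0.5 of the whole range, which holds for 3 of the 10 genes and for 2.49% of all genes. No other array was that far apart for any of the 10, although over all genes the share was 9.15% for treated replicate 2, 2.56% for treated replicate 1, 1.97% for treated replicate 3, 1.17% for corn oil replicate 1 and 0.970% for corn oil replicate 3. That measure was chosen after the values were seen and is a description with no test.

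Bmal1, the activator without which the loop does not run, had log2 levels of -0.88, 0.92 and -0.61 in corn oil replicates 1, 2 and 3 and of -1.36, -0.75 and -1.24 in treated replicates 1, 2 and 3. Corn oil replicate 2 lay 1.53 log2 units (2.90-fold) above the next animal, and the other 5 animals lay within 0.75. The second probe of Bmal1 gave -2.76, -1.06 and -2.70 in the corn oil animals and -3.69, -2.85 and -3.50 in the treated animals, with the same animal highest.

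Dbp, an output factor of the PAR bZIP family and a direct target of BMAL1, had log2 levels of 5.99, 4.08 and 5.70 in the corn oil animals and of 6.23, 6.10 and 6.18 in the treated animals. Corn oil replicate 2 lay 1.61 log2 units (3.06-fold) below the next animal, and the range fell from 2.15 over 6 animals to 0.54 without it. Leaving out any other array kept the range at 2.10 or more. All 4 probes of Dbp had their lowest value in that animal, with ranges of 2.10 to 2.19.

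Tef, a relative of Dbp, had log2 levels of 3.34, 2.22 and 3.22 in the corn oil animals and of 3.53, 3.15 and 3.44 in the treated animals. Corn oil replicate 2 was 0.94 log2 units (1.91-fold) below the next animal, and the other 5 lay within 0.38. The other Tef probe had the same lowest animal, with a range of 1.01.

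**Figure D1:**
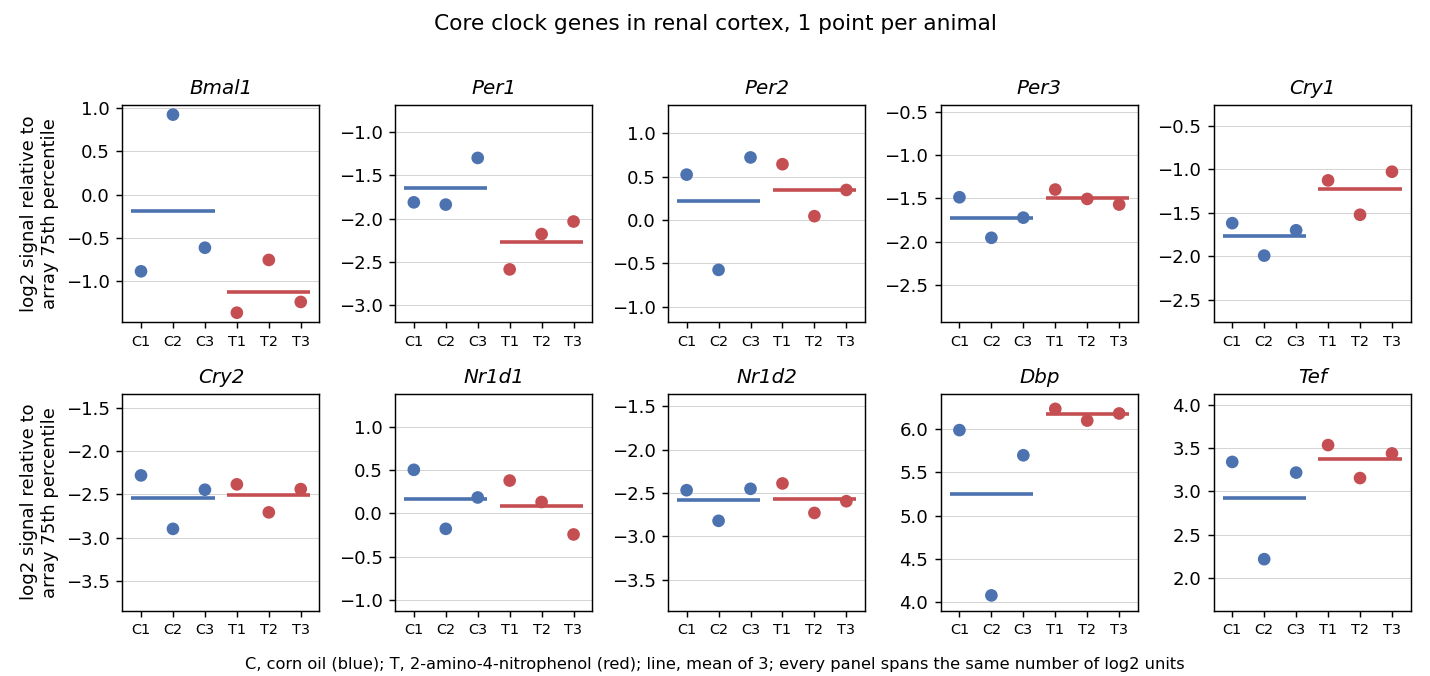
Log2 signal relative to the array's 75th percentile (y axis) of the brightest probe of each clock gene in each animal (x axis; C, corn oil; T, 2-amino-4-nitrophenol), with the mean of 3 animals as a line. Corn oil replicate 2 is highest for Bmal1 (0.92) and lowest for Dbp (4.08) and Tef (2.22), and the treated and corn oil points do not overlap for Per1, Cry1 and Dbp.

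The sequences in front of these genes show which clock motifs lie close to the start. Promoter windows from RefSeq (GRCr8), 250 bases before to 50 after a transcript start, were matched for 9 of the 10 genes (Nr1d1 has 2 windows), and Cry1 was not matched. The motifs searched on both strands were the E-box CACGTG, the E-prime box CACGTT, the D-box TTATGTAA or TTACGTAA that DBP and TEF bind, the core TAGGTCA or TGGGTCA of the element that NR1D and ROR receptors bind, and the cAMP response element TGACGTCA. An E-box was found for 2 of the 9 genes (Tef and a window of Nr1d1) and in 6.42% of all 33469 windows, and an E-prime box for 3 (Per2, Cry2 and the other window of Nr1d1) and in 4.83%. A D-box was found for Per2 alone among the 9 and in 1.01% of all windows, and the receptor core for Bmal1 alone and in 6.60%. None of the 9 held the cAMP response element, which 1.83% of all windows held. No motif of this set was found in the windows of Dbp, Per1, Per3 and Nr1d2. A match describes letters only. The 250 bases before the start are given for Bmal1, for which corn oil replicate 2 was the highest animal, and for Tef and Per2, for which it was the lowest. They are also given for Ciart, a BMAL1 repressor named after its values were seen. The sequences are on the strand of the gene, with motif matches in capitals. They lie at chr1:176766078-176766327, plus strand (Bmal1), chr7:115206577-115206826, plus strand (Tef), chr9:99496994-99497243, minus strand (Per2) and chr2:186112247-186112496, minus strand (Ciart).
Bmal1: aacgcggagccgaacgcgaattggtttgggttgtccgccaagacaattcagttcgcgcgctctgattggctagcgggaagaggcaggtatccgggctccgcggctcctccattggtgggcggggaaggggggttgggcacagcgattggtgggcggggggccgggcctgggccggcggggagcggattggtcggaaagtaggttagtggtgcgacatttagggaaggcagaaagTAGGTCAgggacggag
Tef: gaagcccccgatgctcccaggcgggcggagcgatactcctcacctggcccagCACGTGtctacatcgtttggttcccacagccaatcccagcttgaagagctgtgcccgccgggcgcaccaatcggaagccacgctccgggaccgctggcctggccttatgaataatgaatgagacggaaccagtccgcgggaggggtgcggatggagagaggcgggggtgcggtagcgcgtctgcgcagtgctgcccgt
Per2: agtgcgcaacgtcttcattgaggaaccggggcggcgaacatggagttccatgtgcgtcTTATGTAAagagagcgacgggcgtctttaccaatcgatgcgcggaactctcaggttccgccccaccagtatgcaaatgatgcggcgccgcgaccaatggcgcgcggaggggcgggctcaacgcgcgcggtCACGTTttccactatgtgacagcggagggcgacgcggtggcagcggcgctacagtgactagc
Ciart: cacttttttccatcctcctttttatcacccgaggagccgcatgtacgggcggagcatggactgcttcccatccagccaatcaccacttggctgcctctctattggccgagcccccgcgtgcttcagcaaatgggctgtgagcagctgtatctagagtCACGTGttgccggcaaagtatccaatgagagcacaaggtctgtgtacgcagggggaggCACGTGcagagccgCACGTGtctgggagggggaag
Positions are those of the first base of a match, with -1 next to the start. The Bmal1 window holds its receptor core at -16 and the Tef window an E-box at -198. The Per2 window holds a D-box at -192 and an E-prime box at -62, and the Ciart window 3 E-boxes at -93, -35 and -21.

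Among the period genes, which encode the repressors whose build-up ends each cycle, Per2 and Per3 were lowest in corn oil replicate 2 and Per1 was not. Per2 had log2 levels of 0.52, -0.57 and 0.72 in the corn oil animals and of 0.64, 0.05 and 0.35 in the treated animals. It is the gene with the D-box and E-prime box printed above, and its range fell from 1.30 to 0.68 without corn oil replicate 2.

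Per3 had log2 levels of -1.49, -1.95 and -1.72 in the corn oil animals and of -1.40, -1.51 and -1.57 in the treated animals from its brightest probe, a range of 0.56. Its 3 other kept probes had ranges of 1.50 to 1.83, so the brightest probe showed the smallest spread. All 5 Per3 probes had their lowest value in corn oil replicate 2, and the dimmest was well above background on 4 arrays only. The rule that takes the brightest probe therefore gave Per3 a smaller spread over the animals than any other of its kept probes. This does not hold for the log2 change between the groups, which was 0.23 for the brightest probe and 0.09 to 0.24 for the others.

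Per1, which is also induced directly by glucocorticoids and by cAMP signalling, had log2 levels of -1.81, -1.84 and -1.30 in the corn oil animals and of -2.58, -2.18 and -2.03 in the treated animals. All treated animals were below all corn oil animals. Corn oil replicate 2 lay close to corn oil replicate 1 for this gene.

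The cryptochromes encode the partners of PER in the repressor complex. Cry1 had log2 levels of -1.62, -1.99 and -1.70 in the corn oil animals and of -1.13, -1.52 and -1.03 in the treated animals, so that all treated animals were above all corn oil animals. Cry2 had log2 levels of -2.28, -2.90 and -2.45 in the corn oil animals and of -2.38, -2.71 and -2.44 in the treated animals. Corn oil replicate 2 was lowest for both genes, by 0.29 for Cry1 and 0.19 for Cry2.

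The NR1D receptors close the second loop by repressing Bmal1. Nr1d1 had log2 levels of 0.50, -0.18 and 0.18 in the corn oil animals and of 0.38, 0.13 and -0.24 in the treated animals. Treated replicate 3 was lowest and corn oil replicate 2 next, 0.07 above it. Nr1d2 had log2 levels of -2.47, -2.82 and -2.45 in the corn oil animals and of -2.39, -2.73 and -2.59 in the treated animals, a range of 0.43 over 6 animals.

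The spread of the clock genes over the 6 animals was wide for the array as a whole, and 1 animal held much of it. The SD over 6 animals stood at percentile 97.3 of all genes tested for Bmal1 and for Dbp, 91.5 for Per2, 91.1 for Tef and 88.9 for Per1. It stood at 84.6 for Cry1, 76.9 for Nr1d1, 63.5 for Cry2, 54.8 for Per3 and 44.0 for Nr1d2, the lowest of the 10. The median range of the 10 genes was 1.13, against 0.49 over all genes. Without corn oil replicate 2 these medians were 0.61 and 0.45, whereas leaving out any other single array gave 0.87 to 1.13 for the clock genes. Within the slide that the other 5 arrays shared, the clock genes thus spread less. Slide and animal cannot be told apart for corn oil replicate 2. The liver genes Alb and Apoa1 were also highest on that array, with a summed linear level of 4.83 times the 75th percentile against 0.505 to 3.13 on the others, and both were well above background on all 6 arrays. The part of these in the clock values was not tested.

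Of 7 measured partners, repressors and antagonists, 5 were lowest or highest in corn oil replicate 2 (Clock, Npas2, Nfil3, Bhlhe40 and Ciart), against 36.7% of all genes. Bmal2 and Timeless were not. By the measure of 0.5 of the range, that array stood apart for 1 of the 7, Ciart, against 2.49% of all genes. Ciart passed the filter only through the treated group, as its probe was not well above background in corn oil replicate 2. Its place in both counts rests on that dim value, and nothing is drawn from it. Npas2, the CLOCK relative that also pairs with BMAL1, had log2 levels of -0.68, 0.41 and -0.60 in the corn oil animals and of -1.29, -1.12 and -1.62 in the treated animals. Of its other probes, the one well above background on 3 arrays had the same highest animal, while the one well above background on 6 had a range of 0.37 and did not. Nfil3, the repressor that competes with DBP for D-boxes, was also highest in corn oil replicate 2, with -3.10, -2.04 and -2.76 in the corn oil animals and -3.87, -3.16 and -2.81 in the treated animals.

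Clock, the usual partner of BMAL1, ranged only from -1.77 to -1.26 over the 6 animals, and corn oil replicate 2 was highest by 0.01. Bhlhe40, a repressor at E-boxes, had -0.22, -0.61 and -0.22 in the corn oil animals and 0.18, -0.27 and -0.04 in the treated animals, and was lowest in corn oil replicate 2. Ciart, whose 3 E-boxes are printed above, had -2.25, -6.66 and -2.78 in the corn oil animals and -1.49, -2.60 and -1.99 in the treated animals. Its probe was not well above background in corn oil replicate 2, so the value there is not a reliable level. On the other 5 arrays the probe was well above background. Bhlhe41 and Hlf had no probe named here.

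**Figure D2:**
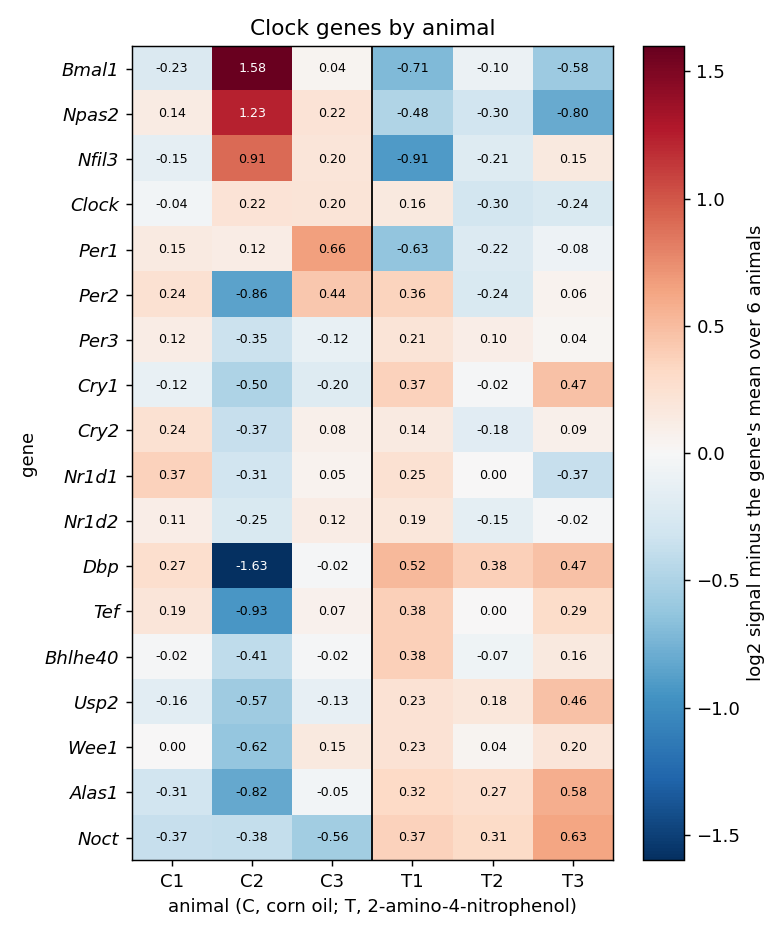
Log2 signal minus the gene's mean over 6 animals (colour and printed number) for clock genes, their partners and output genes (rows) in each animal (columns; C, corn oil; T, 2-amino-4-nitrophenol). The column of corn oil replicate 2 is red for Bmal1, Npas2 and Nfil3 and blue for Dbp, Tef, Per2 and Alas1, and the row of Noct divides the groups.

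The genes whose 6 values ran most like a clock gene were looked for among all genes tested, by the root mean square difference of log2 values centred on each gene's mean. The mirror image of Dbp was nearest to Bmal1 (0.15) of all genes tested, and the mirror image of Bmal1 nearest to Dbp. Nearest to Bmal1 in the same direction were Npas2 (0.27), Tas2r109 (0.28) and Vom2r56 (0.29), and nearest to its mirror image after Dbp were C3h15orf48 and Tef (0.32 each). Nearest to Dbp in the same direction were Scgb3a2 (0.33), Tef (0.34) and Avp (0.36), and to its mirror image after Bmal1 were Tas2r109 (0.18) and Or52n2f (0.22). The probes of Tas2r109 and Or52n2f were well above background on 3 of the 6 arrays and that of Avp on 5, so these are dim signals. With 6 animals, of which 1 is far from the rest, likeness mostly reports that animal.

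For 5 of the 10 genes (Bmal1, Per3, Cry2, Dbp and Tef) there were several probes, all with the same extreme in corn oil replicate 2, while Per2, Cry1, Nr1d1 and Nr1d2 have 1 probe each. Of the 21 probes for the 10 genes, 16 had their lowest value in that animal (9 of them of Per3 and Dbp) and 2, both of Bmal1, their highest. The remaining 3 were those of Nr1d1 and Per1. With normexp background correction, quantile normalization or median scaling this animal was the lowest for 7 genes and the highest for Bmal1, and with spike-in scaling the lowest for 5, as treated replicate 2 was then lowest for Cry2 and Nr1d2.

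**Figure D3:**
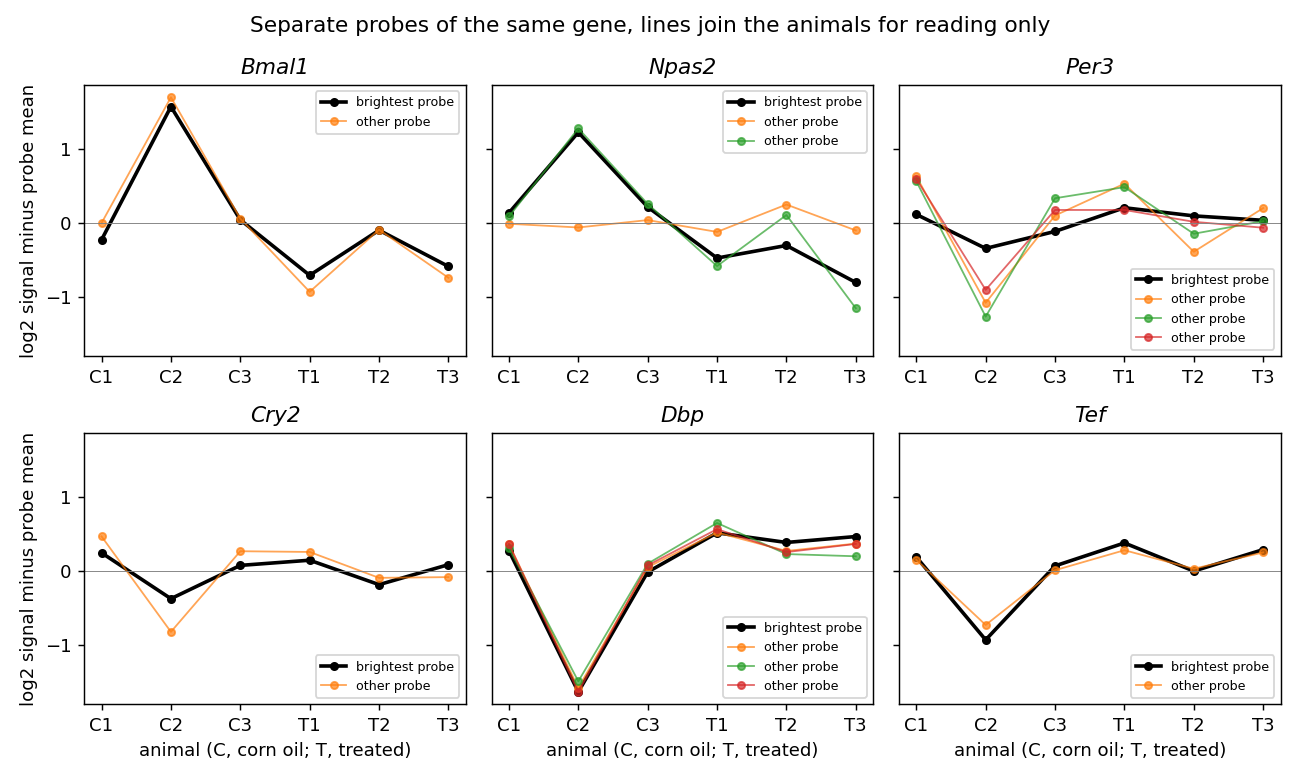
Log2 signal minus the probe's own mean (y axis) in each animal (x axis; C, corn oil; T, treated) for every kept probe of 6 genes, with the brightest probe in black. The 4 Dbp probes lie on each other, the brightest Per3 probe has a smaller dip in corn oil replicate 2 than its other probes, and 1 Npas2 probe is flat, with a range of 0.37.

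Between the groups, none of the 10 clock genes passed the threshold. In the limma fit over 11748 genes, with an adjusted p under 0.05 as the threshold, 0 of the 10 passed, against 0.0255% of all genes (0.0170% higher and 0.00851% lower in treated cortex). At an unadjusted p under 0.05 there were 2 of the 10, Cry1 higher and Per1 lower, against 21.6% of all genes (14.3% higher and 7.29% lower). The groups did not overlap for 3 of the 10, Cry1 and Dbp higher and Per1 lower, against 30.2% of all genes (20.1% higher and 10.1% lower), so the share of the clock genes is close to that of the whole array. Without corn oil replicate 2, 0 of the 10 passed (0% of all genes), 2 (Per1 and Dbp) had an unadjusted p under 0.05 (14.8% of all genes), and the groups did not overlap for the same 3, against 39.1% of all genes (24.4% higher and 14.7% lower). The median log2 change over the 10 genes was 0.08 (-0.13 without corn oil replicate 2), against 0.04 over all genes, with 7 values above 0 and 3 below.

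Per1 had a mean log2 level of -1.65 ± 0.30 (SD, n = 3) in corn oil cortex and a log2 change of -0.62 ± 0.20 (SE) in treated cortex (limma adjusted p = 0.177). The exact two-sided permutation test gave p = 0.1, the smallest that 3 animals against 3 allow. Its second probe gave -0.28 ± 0.12, and normexp correction gave -0.34 and spike-in scaling -0.94.

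Cry1 had a mean log2 level of -1.77 ± 0.20 (SD, n = 3) in corn oil cortex and a log2 change of 0.55 ± 0.17 (SE), or 1.46-fold (limma adjusted p = 0.161, exact permutation p = 0.1). The change was 0.44 without corn oil replicate 2 and 0.23 after spike-in scaling. Cry1 has 1 probe on the array. It passed in 1 alternative, array weights (limma adjusted p = 0.0287), under which 2010 genes of the array passed.

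Dbp had a log2 change of 0.91 ± 0.48 (SE; limma adjusted p = 0.315, exact permutation p = 0.1), which was 0.33 ± 0.12 without corn oil replicate 2. Its SD was 1.03 in the corn oil group and 0.07 in the treated group (n = 3 each). The treated animals lay above all corn oil animals by the brightest probe, whereas the groups overlapped on the other 3 probes, which had changes of 0.72 to 0.79.

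Bmal1 had a log2 change of -0.93 ± 0.48 (SE; limma adjusted p = 0.309), which was -0.37 ± 0.22 without corn oil replicate 2, and the groups overlapped. Tef had 0.45 ± 0.31, which was 0.10 without that animal and 0.13 after spike-in scaling. The remaining genes had log2 changes of 0.23 ± 0.13 for Per3, 0.12 ± 0.36 for Per2, 0.03 ± 0.18 for Cry2, 0.01 ± 0.14 for Nr1d2 and -0.08 ± 0.22 for Nr1d1 (SE, n = 3 per group). Without corn oil replicate 2, those of Per2 (-0.28), Cry2 (-0.15) and Nr1d2 (-0.11) turned below 0, that of Per3 was 0.11 and that of Nr1d1 -0.25. Without corn oil replicate 1 that of Per3 was 0.35 and that of Nr1d1 0.09, and Nr1d1 was at -0.23 without treated replicate 1 and 0.09 without treated replicate 3. Of 3 erythroid markers, 3 (Hbb, Alas2 and Ahsp) were higher in all treated animals, against 20.1% of all genes. They were well above background on all arrays, and 0 passed in limma (adjusted p = 0.116, 0.179 and 0.122). Their summed linear level was 140 to 200 times the 75th percentile in the corn oil animals and 258 to 381 in the treated animals. The summed levels also did not overlap for the thick ascending limb (263 to 288 against 347 to 443, from Umod alone). Nor did they for the distal tubule (22.0 to 28.6 against 16.1 to 19.8, from Slc12a3 and Calb1). Of 7 proximal tubule markers, 3 (Slc34a1, Slc22a6 and Slc13a3) were higher in all treated animals (20.1% of all genes) and 1 (Lrp2) was lower (10.1%). Of 3 collecting duct markers, Aqp3 and Scnn1g were lower in all treated animals (10.1% of all genes), while the groups overlapped for Aqp2. The part of these markers in the clock values was not tested, and in bulk tissue a change in the share of a cell type and a change per cell cannot be told apart.

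**Figure D4:**
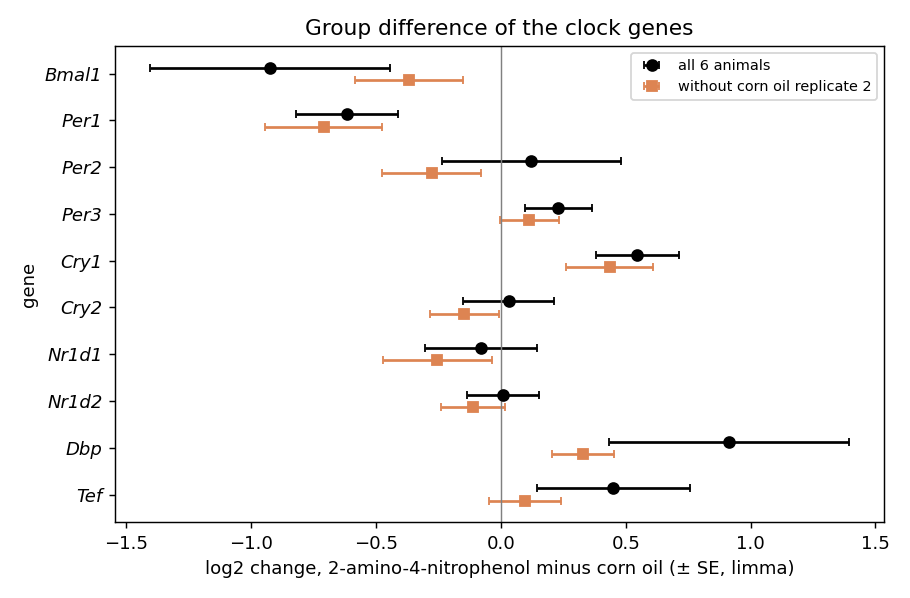
Log2 change (2-amino-4-nitrophenol minus corn oil, x axis, ± SE of limma) of each clock gene (y axis) with all 6 animals (black) and without corn oil replicate 2 (orange). Leaving out that animal moves Dbp from 0.91 to 0.33 and Bmal1 from -0.93 to -0.37, while Per1 stays below 0 and Cry1 above it.

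Among other clock regulators 6 of 10 partners and repressors were measured, 0 passed in limma (1 at an unadjusted p under 0.05), and the groups did not overlap for 1, against 21.6% and 30.2% of all genes. That was Npas2, with a log2 change of -1.06 ± 0.31 (-0.71 without corn oil replicate 2; adjusted p = 0.156) from its brightest probe. Its other probe well above background on all 6 arrays gave 0.02 ± 0.12. The probe well above background on 3 arrays gave -1.08 ± 0.42. Clock had -0.25 ± 0.15 (-0.39 without treated replicate 1 and -0.16 without treated replicate 2). Bhlhe40 had 0.31 ± 0.16 (spike-in scaling gave -0.01, leaving out corn oil replicate 2 gave 0.18 and leaving out treated replicate 1 gave 0.20). Nfil3 had -0.64 ± 0.36 (normexp correction gave -0.26, and leaving out either corn oil replicate 2 or treated replicate 1 gave -0.35). Of the kinases, ligases and deubiquitinases that act on PER and CRY, 6 of 8 were measured and 0 passed in limma (1 at an unadjusted p under 0.05, against 21.6% of all genes). That was Usp2, a rhythmic deubiquitinase, with 2.40, 1.99 and 2.43 in the corn oil animals and 2.79, 2.75 and 3.03 in the treated animals, a log2 change of 0.58 ± 0.15 (SE; limma adjusted p = 0.136), or 0.26 after spike-in scaling.

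Of the clock output genes, all 10 were measured and 0 passed in limma (4 at an unadjusted p under 0.05, against 21.6% of all genes). The groups did not overlap for 5 of 10, against 30.2% of all genes. Of these, 4 were higher (20.1% of all genes) and 1 lower (10.1%). The median log2 change was 0.22. Noct, which encodes the rhythmic enzyme nocturnin, had log2 levels of -0.51, -0.51 and -0.69 in the corn oil animals and of 0.23, 0.18 and 0.49 in the treated animals. Its log2 change was 0.87 ± 0.12 (SE; limma adjusted p = 0.0799), 0.90 without corn oil replicate 2 and 0.55 after spike-in scaling. A second Noct probe gave 0.93, and the dimmest gave 0.15.

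Alas1, the first enzyme of heme synthesis and a target of the PAR bZIP factors, had 5.06, 4.54 and 5.32 in the corn oil animals and 5.69, 5.64 and 5.94 in the treated animals. It was lowest in corn oil replicate 2, and its log2 change was 0.78 ± 0.21 (0.57 without that animal and 0.46 after spike-in scaling; limma adjusted p = 0.142). Nampt, the rate-limiting enzyme of NAD salvage, had 0.40 ± 0.15 (spike-in scaling gave 0.08, and leaving out treated replicate 1 gave 0.26). The tetraspanin gene Tspan4 had 0.27 ± 0.12 (0.18 without corn oil replicate 1 and -0.05 after spike-in scaling). Pdk4, a kinase that shuts off pyruvate dehydrogenase, had -0.97 ± 0.23 (adjusted p = 0.130), and -0.35 after normexp correction. Wee1, a mitotic kinase and BMAL1 target named after its values were seen, had 1.01, 0.39 and 1.16 in the corn oil animals and 1.24, 1.05 and 1.21 in the treated animals, and was lowest in corn oil replicate 2 too.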

How the data were processed

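Total RNA of 6 renal cortices was labelled with Cy3. Scanner files were made by Agilent Feature Extraction, version 10.7.1.1 per the file headers and 10.7 per the submitters' processing notes. They hold a deposited processed intensity per spot (linear, with background removed and spatial trends taken out) and flags for background, saturation and outliers. A ratio of this intensity to the 75th percentile of the array is what the authors deposited as their value table, as a comparison with the scanner files showed. Each of its columns matched another replicate of its group (SD of the log2 difference about 0.00014), so replicates follow the scanner files.

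Here the log2 processed intensity minus the 75th percentile was used. Control spots and 64 probes flagged as outliers were left out. A probe was kept if every array of at least 1 group had it well above background, and a gene was its brightest kept probe. Names came from RefSeq accessions (27460 of 61657 probes, GRCr8 table). The headers name another build, so probes have no coordinates. Treated and corn oil arrays were set against each other in limma (version 3.58.1, under R 4.3.3; lmFit, then eBayes), p-values were adjusted by Benjamini-Hochberg over all genes, and the fit was tested on simulated data. Over all genes, values centred within each group did not correlate between animals of the same replicate number (0.006, -0.05 and -0.032), and no block was used. That check covers all genes together, and pairing in the clock genes alone was not tested. All 10 members were named, as were listed genes whose groups did not overlap, 7 fixed genes and the 3 genes nearest Bmal1, Dbp and their mirror images. Ciart, Wee1, Klf9 and Sgk1 were added after their values were seen. Members and lists were chosen with earlier results of these data known. Alternatives were background correction, normalization, filters, blocks, probe averaging, variance settings, array weights, a threshold of 0.1 and leaving out each array.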

Additional observations from a re-analysis of the deposited data

How the results depend on the processing

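No clock gene passed in the limma fit, and 0 of 10 passed under all alternatives except array weights, where 1 did (Cry1, adjusted p = 0.0287). The number of called genes over the array went from 3 to 2010 with array weights, 132 at a threshold of 0.1, 69 with trend and robust settings, 56 after normexp correction, 8 after spike-in scaling and 0 with no filter, probe averaging, the slide block or the replicate block (2121 genes at an unadjusted p under 0.05 with the replicate block), and from 0 (without any 1 corn oil array) to 74 (without treated replicate 2) when 1 array was left out. The replicate block changed no call of a clock gene. It holds 1 array of each group per replicate, so it cannot move a log2 change, nor the median of 0.076. The SE fell for every clock gene, as from 0.48 to 0.27 for Bmal1 and from 0.36 to 0.22 for Per2. An unadjusted limma p under 0.05 was then reached by 3 of 10, against 2 without the block. Among treated animals, replicate 2 was highest for Bmal1 and lowest for Per2, Cry1, Cry2, Nr1d2, Dbp and Tef. For Per1, Per3 and Nr1d1 it was neither. Spike-in scaling, which moved the median of all genes from 0.04 to -0.28, moved the clock median to -0.243. Of genes with an unadjusted p under 0.05, 33.8% were lower in treated cortex, against 95.3% after spike-in scaling, 53.7% after quantile normalization, 22.1% after normexp correction and 22.9% with no filter. With 1 array left out, the clock median ranged from -0.129 (without corn oil replicate 2) to 0.216 (without corn oil replicate 1).

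Signs turned for Per2 (-0.06 with array weights, -0.28 with the slide block, -0.20 after spike-in scaling), Cry2 (-0.15 slide block, -0.29 spike-in), Nr1d2 (-0.06 weights, -0.11 slide block, -0.31 spike-in), Per3 (-0.09 spike-in), Bhlhe40 and Wee1 (-0.01 each, spike-in), Tspan4 (-0.05 spike-in), Cdkn1a (-0.04, probe averaging) and Tsc22d3 (-0.03 probe averaging, -0.08 quantile, -0.30 spike-in, 0.00 normexp). For the clock genes the slide block gave the same log2 changes as leaving out corn oil replicate 2, the only array on its slide. These are therefore not separate results. With 1 array left out, changes ran from -0.28 to 0.37 for Per2, -0.15 to 0.16 for Cry2, -0.11 to 0.09 for Nr1d2, -0.25 to 0.09 for Nr1d1 and -0.15 to 0.25 for Tsc22d3. Array weights called Noct (1.03), Alas1, Npas2, Nampt, Pdk4, Usp2 and Cdkn1a, and Noct also passed after normexp correction and with trend and robust settings. The cause was not tested. The alternatives for genes that are no members, and the ranges without single arrays, were chosen after seeing the data.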

Other observations

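Genes that respond to the glucocorticoid receptor, which entrains peripheral clocks and induces Per1, are a list of 8, all measured, of which 0 passed in limma (1 at an unadjusted p under 0.05, against 21.6% of all genes). The median log2 change was 0.05. Tsc22d3, the leucine zipper gene Gilz, had log2 levels of 2.26, 2.18 and 2.14 in the corn oil animals and of 1.73, 2.53 and 2.35 in the treated animals, which differ by 0.02 ± 0.21 (SE) between the groups. Klf9 and Sgk1 were named after their values were seen. Klf9, a further rhythmic target, ranged only from 3.47 to 3.73 over the 6 animals. Sgk1, a kinase of sodium transport, ranged from 1.59 (treated replicate 1) to 3.29 (corn oil replicate 3). The groups did not overlap for 1 of the 8, against 30.2% of all genes, the cell cycle inhibitor Cdkn1a, at 0.46 ± 0.15 from its brightest probe and -0.55 from the other kept probe.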
